A study of Mus musculus with 36 samples.

Results

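In mouse embryonic stem cells, 2389 places in the genome carried a peak of all 3 forms of HA-tagged histone H4 that were mapped: the mutants H4K91R and H4K91Q, and H4WT. They were 2.57% (exact 95% interval 2.47 to 2.68) of the 92820 places with a peak of any of the 3. To find them, peaks of the 3 lists that overlapped no peak of the empty-vector control were pooled, overlapping peaks were merged to places, and the places with a peak of each list were kept. The peak calls themselves thus chose the places, and the height and q of those peaks are given as a description with no test.

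The cells stably expressed a PiggyBAC transgene for H4K91R_3HA, H4K91Q_3HA or H4WT_3HA, or held the empty PiggyBAC vector, and kept their own H4 genes. Each line was fixed, sonicated and pulled down with anti-HA beads, and peaks were called against the input of the same line, in 1 library per group. The titles of these libraries label the lines parental. The other 32 of 36 samples, which include Hira, H3.3 and DAXX knockout lines, were not analysed here. The labels do not give the promoter of the transgene or whether a line was 1 clone, and a peak list holds no gene expression, so the cell type could not be checked by its markers.

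Histone H4 is wrapped with H3, H2A and H2B in every nucleosome, and lysine 91 lies in its globular part, where the H3-H4 tetramer meets the H2A-H2B dimers. Arginine keeps the positive charge of lysine, whereas glutamine loses it and resembles an acetylated lysine. New H4 is brought to DNA with H3 by chaperones, during replication or outside it. Imprinting control regions, which return below, carry DNA methylation on the allele of 1 parent only, and in embryonic stem cells the zinc finger protein ZFP57 binds the methylated TGCCGC motif there and recruits KAP1 and H3K9 methylation.

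The few promoters that held all 3 tagged histones included those of imprinted genes, of the germline gene Dazl and of a Hox gene, and examples of these are shown. Of 32851 RefSeq promoter windows (GRCm38.p6, the same assembly as mm10, 250 bases before to 50 after a start), 127 were overlapped by a place of all 3, which is 0.387%. The genes printed were chosen after their values were seen. Each window lies wholly inside such a place and is written 5′ to 3′ in the direction of its gene, with TGCCGC or its complement GCGGCA in capitals.
Nap1l5 (chr6:58907077-58907376, minus strand): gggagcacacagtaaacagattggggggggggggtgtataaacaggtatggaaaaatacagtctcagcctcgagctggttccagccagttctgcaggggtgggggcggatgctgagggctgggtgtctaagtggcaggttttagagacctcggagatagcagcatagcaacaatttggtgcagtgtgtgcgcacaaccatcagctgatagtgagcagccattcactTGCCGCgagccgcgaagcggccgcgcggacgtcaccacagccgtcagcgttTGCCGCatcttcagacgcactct
Plagl1 (chr10:13090582-13090881, plus strand): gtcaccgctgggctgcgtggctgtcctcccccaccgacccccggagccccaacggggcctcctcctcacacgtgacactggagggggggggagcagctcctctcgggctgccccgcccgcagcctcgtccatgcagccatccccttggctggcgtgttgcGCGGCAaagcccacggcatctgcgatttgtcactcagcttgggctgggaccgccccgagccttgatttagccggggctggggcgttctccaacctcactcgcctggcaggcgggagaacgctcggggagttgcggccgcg
Nnat (chr2:157559828-157560127, plus strand): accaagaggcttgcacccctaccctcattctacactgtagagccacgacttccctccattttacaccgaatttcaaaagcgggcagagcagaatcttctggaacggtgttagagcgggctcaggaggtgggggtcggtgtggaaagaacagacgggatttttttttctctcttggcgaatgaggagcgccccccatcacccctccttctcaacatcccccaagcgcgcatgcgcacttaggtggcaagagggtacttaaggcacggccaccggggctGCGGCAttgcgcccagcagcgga
Mest (chr6:30737800-30738099, plus strand): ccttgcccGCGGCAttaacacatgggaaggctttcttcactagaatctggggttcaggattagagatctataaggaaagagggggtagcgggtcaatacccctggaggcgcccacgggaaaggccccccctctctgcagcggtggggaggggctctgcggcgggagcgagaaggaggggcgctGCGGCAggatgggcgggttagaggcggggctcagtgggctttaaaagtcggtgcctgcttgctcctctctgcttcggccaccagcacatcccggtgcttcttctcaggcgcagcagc
Peg3 (chr7:6730370-6730669, minus strand): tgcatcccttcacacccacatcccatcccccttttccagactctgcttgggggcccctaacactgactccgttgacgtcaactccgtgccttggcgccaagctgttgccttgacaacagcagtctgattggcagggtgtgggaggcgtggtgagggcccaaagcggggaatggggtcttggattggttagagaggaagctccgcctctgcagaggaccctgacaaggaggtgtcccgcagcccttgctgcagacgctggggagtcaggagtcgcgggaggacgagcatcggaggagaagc
Dazl (chr17:50293571-50293870, minus strand): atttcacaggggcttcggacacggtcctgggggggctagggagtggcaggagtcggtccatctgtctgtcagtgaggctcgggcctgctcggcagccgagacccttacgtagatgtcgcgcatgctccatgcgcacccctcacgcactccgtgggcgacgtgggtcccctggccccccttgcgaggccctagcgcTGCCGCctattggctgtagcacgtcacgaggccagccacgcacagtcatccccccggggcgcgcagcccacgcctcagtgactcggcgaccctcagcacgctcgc
Hoxd11 (chr2:74682073-74682372, plus strand): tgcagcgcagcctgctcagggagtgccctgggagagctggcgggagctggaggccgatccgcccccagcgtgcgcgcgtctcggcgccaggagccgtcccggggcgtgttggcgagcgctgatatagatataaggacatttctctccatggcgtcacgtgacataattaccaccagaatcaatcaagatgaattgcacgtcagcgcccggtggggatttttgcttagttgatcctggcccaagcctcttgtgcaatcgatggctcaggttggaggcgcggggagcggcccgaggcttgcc

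Nap1l5 and Mest have 2 copies of the motif in these windows, Plagl1, Nnat and Dazl have 1, and Peg3 and Hoxd11 have none. Over both strands, TGCCGC was present in 23.6% of the 127 promoters with all 3 tagged histones (16.5 to 32.0), 23.3% of 43 with H4K91R and H4K91Q only, 23.7% of 5638 with H4K91R and H4WT only, and 11.6% of all 32851. TCCCGC, a motif of E2F6, was present in 37.0% of held promoters (28.6 to 46.0), against 43.9% of those with H4K91R and H4WT only and 19.98% of all. CACGTG, an E-box, was present in 12.6% of held promoters (7.4 to 19.7), against 9.61% of those with H4K91R and H4WT only and 7.15% of all. The promoters with all 3 lay between the other kinds in base composition. Their median GC content was 61.7% and their median number of CpG dinucleotides 18, against 51.3% and 5 with H4K91R and H4K91Q only, 66.0% and 25 with H4K91R and H4WT only, and 52.7% and 7 over all promoters. A motif match in a window of letters describes the sequence alone. The 127 windows belong to 111 genes, and some overlap, as those of Mest, or are identical, as those of Snrpn and Snurf. The exact intervals count each window separately and take no account of this.

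Places with the other two tagged histones almost always held H4K91R as well. Among places with H4K91Q and H4WT, 94.9% also held H4K91R (93.9 to 95.7), against 33.5% of places with H4WT without H4K91Q (33.1 to 33.9). H4K91Q was present at 10.2% of places with H4K91R and H4WT (9.85 to 10.6), and at 0.309% of places with H4WT without H4K91R (0.258 to 0.367). H4WT was present at 34.7% of places with H4K91R and H4K91Q (33.6 to 35.8), and at 1.96% of places with H4K91Q without H4K91R (1.64 to 2.33). Only 129 places held H4K91Q and H4WT without H4K91R. The places of all 3 took up 5.78% of the retained H4K91R peaks (2769 of 47898), 19.6% of the H4K91Q peaks (2778 of 14206) and 4.12% of the H4WT peaks (2766 of 67078). These shares move with the length of the lists, and list length moves with sequencing depth, which the files do not give.

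The height of the H4K91R peak separated places with and without H4K91Q far more than the height of the H4WT peak. Places with H4K91R and H4WT were ranked by the authors' fold, which is the signal at the summit over the local background, and divided into 10 equal bins. In bin 1, the lowest by H4K91R fold, 1.16% also held H4K91Q (0.76 to 1.68), in bin 9 it was 15.9% (14.5 to 17.5) and in bin 10, the highest, 66.9% (64.9 to 68.8). By H4WT fold the first 9 bins stayed between 7.20% and 11.7%, and bin 10 had 17.1% (15.6 to 18.6). Where H4K91R was in its bin 10, H4K91Q was present at 70.4% of places with H4WT in its lowest 5 bins (604 of 858) and at 69.9% of those with H4WT in its bin 10 (387 of 554). Where H4K91R was in its lowest 5 bins and H4WT in its bin 10, H4K91Q was present at 1 of 757 places. Within bin 10 of H4K91R the share differed by location: H4K91Q was present at 78.6% of places outside genes, 61.9% of those inside a gene body and 29.6% of those at a gene end.

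**Figure D1:**
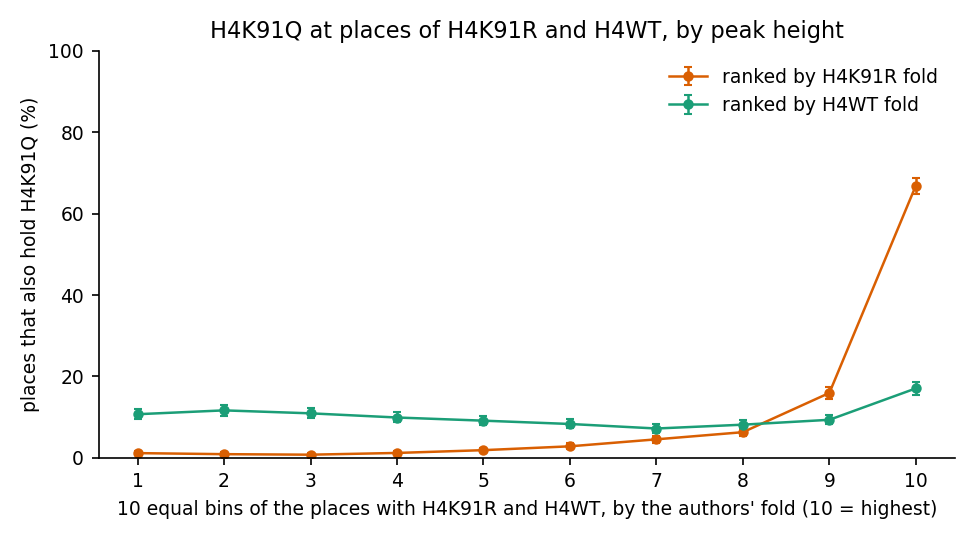
Places with H4K91R and H4WT were divided into 10 equal bins by the authors' fold of H4K91R or of H4WT (x axis, lowest to highest), and the y axis gives the percentage that also held an H4K91Q peak, with exact 95% intervals. With all locations pooled, the share ranked by H4K91R fold was 1.16% in the lowest bin and 66.9% in the highest. Ranked by H4WT fold it was 10.7% and 17.1%.

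Within its own list, the H4K91R peak of a place of all 3 was usually near the top. Its median fold was 10.1 (quartiles 7.63 to 13.5), and its median percentile in the whole deposited H4K91R list was 96.3. Peaks at places of H4K91R and H4K91Q only had a median percentile of 71.7 and those at places of H4K91R and H4WT only 54.4. The H4K91Q peak had a median fold of 5.89 (4.79 to 7.64) and a median percentile of 70.0 in its list, against 61.8 at places of H4K91R and H4K91Q only. The H4WT peak had a median fold of 6.71 (5.33 to 9.11) and a median percentile of 69.6, against 70.0 at places of H4K91R and H4WT only. Of the retained peaks in the top 1% of the H4K91R list by fold, 428 of 458 lay in places of all 3 (93.4%). So did 68.1% of those in the top 1% of the H4K91Q list and 31.1% of those in the top 1% of the H4WT list. Of the lowest 10%, 1.05% of H4K91R peaks, 14.6% of H4K91Q peaks and 2.71% of H4WT peaks lay there. Fold is not compared between lists.

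The 3 peaks of a place mostly lay on top of one another. In 2316 places (96.9%) at least 1 base was covered by all 3 lists, and in 73 the peaks were joined only through a chain of overlaps. A single peak of each list made up 1752 places (73.3%, 71.5 to 75.1). The summits of H4K91R and H4WT lay a median of 50 bp apart, those of H4K91Q and H4WT 78 bp and those of H4K91Q and H4K91R 73 bp, and in 60.7% of places all 3 summits fell within 150 bp. H4K91R covered a median of 548 bp of a place, H4K91Q 460 bp and H4WT 315 bp, with 244 bp covered by all 3. H4WT covered the fewest bases in 70.1% of places and H4K91R the most in 56.7%. The place as a whole had a median width of 652 bp (469 to 993), against 500 bp for H4K91R and H4K91Q only and 477 bp for H4K91R and H4WT only. A place of all 3 is a union of at least 3 peaks, so it is wider by construction.

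Just inside the rule, 6 places had only 1 to 10 bases covered by all 3 lists, and the weakest peaks had a −log10 q of 2.38 for H4K91R, 1.61 for H4K91Q and 1.40 for H4WT. Just outside it, 29 places of H4K91R and H4WT had an H4K91Q peak within 100 bp and 181 within 500 bp, the nearest across a gap of 3 bp. In 1689 places the highest peak of every list had a −log10 q of 5 or more.

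Most places of all 3 tagged histones lay away from genes, and few lay at gene starts. By midpoint, 66.7% were outside protein-coding genes (64.8 to 68.6), against 77.3% of places with H4K91R and H4K91Q only (76.0 to 78.5) and 19.003% of those with H4K91R and H4WT only (18.5 to 19.5). Only 3.39% lay within 1 kb of a gene start (2.70 to 4.20), against 0.378% (0.2202 to 0.604) and 27.4% (26.8 to 28.0) for the same 2 kinds of place. The other end of a gene held 1.21%, against 0.889% and 3.93%. Places over 100 kb from any protein-coding gene made up 20.01% (18.4 to 21.7), against 24.6% and 3.66%. In each of these features the places of all 3 lay between these 2 kinds, closer to the mutant pair. The exact intervals do not overlap except at the other gene end, where those of all 3 and of the mutant pair do. They cover counting only, and places of 1 library are not replicates. Lying outside genes and being rare at gene starts were not particular to places of all 3. Outside genes lay 80.3% of places with H4K91Q alone, 72.9% of those with H4K91Q and H4WT only and 49.8% of those with H4K91R alone. At gene starts these shares were 0.279%, 0.775% and 3.91% (3.63 to 4.22). Places with H4WT alone had 26.3% outside genes and 16.0% at gene starts.

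**Figure D2:**
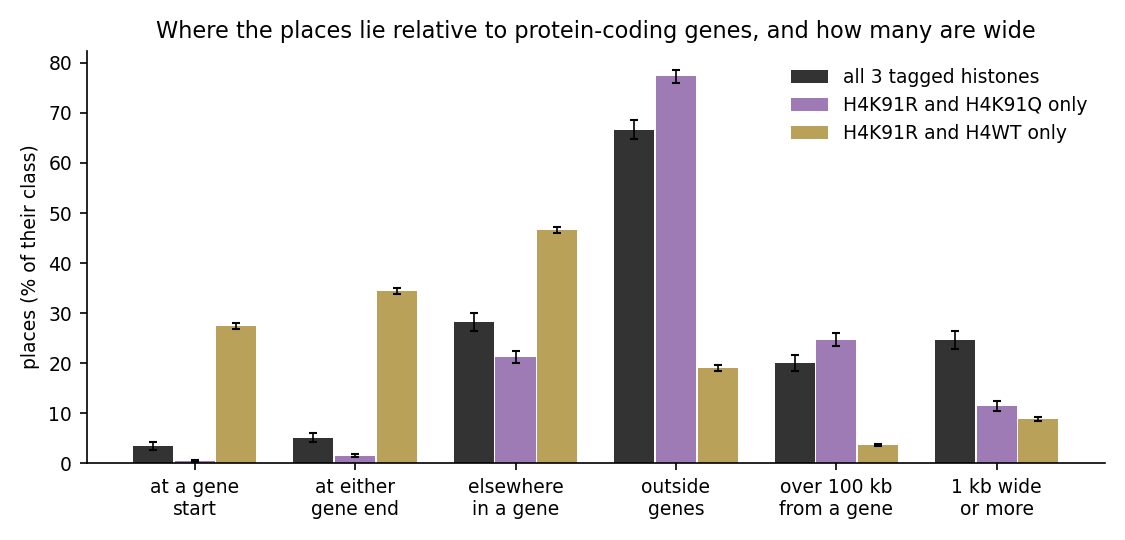
Bars give the percentage of places in each class (y axis) that lie at a gene start, at either gene end, elsewhere in a gene, outside genes, over 100 kb from a gene, or are 1 kb wide or more, with exact 95% intervals. Places of all 3 tagged histones (dark) had 66.7% outside genes, against 77.3% for H4K91R and H4K91Q only and 19.003% for H4K91R and H4WT only.

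In width the places of all 3 stood outside the range of the others, as their construction favours: 24.6% spanned 1 kb or more (22.9 to 26.4), against 11.4% with H4K91R and H4K91Q only (10.5 to 12.4) and 8.75% with H4K91R and H4WT only (8.37 to 9.14). Pseudogenes held 3.52% of them (2.81 to 4.33), against 2.93% (2.46 to 3.47, an overlapping interval) and 1.46% (1.30 to 1.63). Along the genome, windows of 1 Mb were sorted by gene number into 5 equal groups. The densest group (13 to 67 protein-coding genes in a window) held 35.9% of the places of all 3 (33.9 to 37.8), against 27.4% of those with H4K91R and H4K91Q only and 59.4% of those with H4K91R and H4WT only. The sparsest group (0 to 1) held 13.2%, against 14.1% and 2.75%. An empty-vector peak lay within 10 kb of 4.27% of the places of all 3 (3.49 to 5.16), against 2.27% with H4K91R and H4K91Q only and 12.8% with H4K91R and H4WT only.

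Among places with H4K91R and H4WT, the share that also held H4K91Q was 28.6% outside genes (27.4 to 29.8), 6.46% inside gene bodies (5.99 to 6.95) and 1.67% at gene ends (1.39 to 1.99). The 122 places of all 3 at gene ends differed in height from the rest within each list. Their median percentile was 97.6 for H4K91R, 49.6 for H4K91Q and 91.1 for H4WT. For the 1593 outside genes it was 95.9 for H4K91R, 71.5 for H4K91Q and 66.4 for H4WT. Set against those outside genes, the gene-end places had higher-ranked H4WT peaks and lower-ranked H4K91Q peaks, each within its own list. The H4WT difference was not particular to places of all 3. With H4K91R and H4WT only, the median H4WT percentile was 80.1 at gene ends and 52.8 outside genes. With H4K91R and H4K91Q only, the median H4K91Q percentile was 65.2 at gene ends and 61.8 outside genes.

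The highest-ranked places were those whose lowest percentile over the 3 lists was highest, and several spanned kilobases inside genes. Inside Spred2, a Ras pathway inhibitor, a place of 5544 bp (chr11:20017298-20022841) had folds of 43.8 for H4K91R, 24.8 for H4K91Q and 24.9 for H4WT. At Hcn2, a pacemaker channel gene, and its neighbour Polrmt, the mitochondrial RNA polymerase gene, 7292 bp (chr10:79734920-79742211) had folds of 57.8, 23.5 and 33.5 in the same order of lists. In both, the highest peak of each list stood at or above the 99.97th percentile of its own list.

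Zfp629, a zinc finger gene, held folds of 54.8 for H4K91R, 20.8 for H4K91Q and 29.9 for H4WT in 3671 bp (chr7:127609888-127613558). Trak1, a kinesin adaptor gene, held 36.5, 27.5 and 16.3, the highest H4K91Q fold of any place. A place of 6502 bp across the other ends of Sytl3 and Ezr, the gene of a membrane-actin linker, had 46.9 for H4K91R, 16.9 for H4K91Q and 16.3 for H4WT, and a second place of 7890 bp began just beyond it, inside Ezr. Another of 11236 bp over Srrm2, a splicing factor gene, and Elob, an elongin subunit gene, was made of 4 H4K91R peaks, 1 H4K91Q peak and 11 H4WT peaks. The widest of all, 11818 bp inside Agrn, the gene of the synapse organiser agrin, joined 5, 6 and 14 peaks of the 3 lists. AW554918 and Arhgap10, a GTPase-activating protein gene, completed the leading places inside genes.

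Outside genes the highest-ranked place lay 6639 bp from Rab10, a trafficking GTPase gene, the next near the predicted gene Gm52796, and the third 27482 bp from Scn2a, a neuronal sodium channel gene. Their folds were 26.1 for H4K91R, 16.6 for H4K91Q and 16.0 for H4WT near Rab10, and 37.0, 14.4 and 20.01 near Scn2a. Of the 12 highest places outside genes, 4 lay on chromosome 5 (nearest genes Gm52796, Nptx2, Tmem270 and Auts2) and 3 at the end of chromosome Y near or partly over Gm52481. The remaining 3 were near Chd9, Lrrc8a and Mup1. At the low end stood places near Mid1, Gm51425, Gm52481 and Zfp706 and inside Sp110 and Sp140. The place near Mid1 had a fold of 5.82 for H4K91R, 1.57 for H4K91Q and 3.37 for H4WT.

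A place of all 3 reached the 1 kb around an outermost annotated end of 174 of 21887 protein-coding genes, which is 0.795%. For comparison, places with H4K91R and H4K91Q only did so at 0.379% of genes and places with H4K91R and H4WT only at 34.1%. After Polrmt, Hcn2, Sytl3, Ezr, Srrm2 and Elob, the leading genes were Nap1l5, a retrogene of the nucleosome assembly protein family, Ppp2r3d, a phosphatase subunit gene, and Phyhipl. At Phyhipl the place covered the start, with folds of 29.8 for H4K91R, 10.4 for H4K91Q and 20.2 for H4WT. Next came Radil, Laptm5, the cytokine receptor gene Crlf2, Noc2l, and the neighbours Atp13a2 and Mfap2, which share 1 place. Plagl1, Ogfod2, Nhlrc1, Nnat and Usp29 completed the first 20. Of these 20 genes, Nap1l5, Plagl1, Nnat and Usp29 are imprinted.

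Imprinted genes had the highest share of the 16 gene lists examined, although the intervals of several of the small lists overlap theirs. Of 51 imprinted protein-coding genes, 10 had a place of all 3 at an end (19.6%, 9.82 to 33.1), beside 0.795% of all protein-coding genes. The held promoters of Mest and Snrpn lie inside their genes, away from the outermost ends, and do not add to this count. Places of H4K91R and H4WT only were at an end of 25 of the 51 and places of the mutant pair at 1. The 8 highest were Nap1l5, Plagl1, Nnat, Peg3 and Usp29 (which share a place), Sgce and Peg10 (which share another) and Zrsr1. Mcts2 and the growth factor gene Igf2 were the other two. Neighbouring genes count separately here although they share a place.

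The list was then widened to 21 imprinting loci, chosen after imprinted genes had been seen to lead, and to the gene and 5 kb around it. At 17 of the 21 a place of all 3 was found (81.0%, 58.1 to 94.6), beside 2.73% of all 49943 annotated genes. Counted in the same way, 25 of the 51 imprinted protein-coding genes had one, beside 3.75% of all protein-coding genes. The shares over all genes are not matched on gene length. The 17 loci held 21 places of all 3, and the values that follow are for the highest-ranked place of each, which favours high ones. These were 548 to 3593 bp wide with a median of 1988 bp. Their median percentile was 99.5 for H4K91R, 92.8 for H4K91Q and 99.4 for H4WT. A lower-ranked place in Grb10, for example, had 657 bp and an H4WT percentile of 62.9. In 16 of the 17 the highest place stood above the middle of all 3 lists. The exception was Meg3, whose H4K91Q peak lay at the 11.6th percentile.

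Grb10, a growth-restricting adaptor gene, had the highest folds of H4K91R and H4WT among these loci, at 37.7 for H4K91R, 12.9 for H4K91Q and 19.7 for H4WT, in a place inside the gene (chr11:12025285-12027270). Gnas, the gene of a stimulatory G protein subunit, had 28.2, 9.02 and 15.4. Nap1l5, whose promoter is printed above, had 23.1, 13.6 and 16.2, in a place of 1664 bp that includes the whole window. The place at the start of Plagl1, a zinc finger growth regulator gene, had 26.4, 8.60 and 14.5. Nnat, the neuronatin gene, had 18.5, 8.29 and 18.7, and Mest 16.4, 8.24 and 13.2. Peg3, whose promoter window has no TGCCGC, had 16.7, 11.5 and 9.50 in the widest place, 3593 bp.

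The antisense RNA genes that silence their neighbours in cis were in this group too. Airn, which lies against Igf2r, had folds of 21.1 for H4K91R, 9.60 for H4K91Q and 15.5 for H4WT, and Kcnq1ot1, inside Kcnq1, had 16.1, 5.28 and 10.4. Snrpn, the gene of an mRNA splicing protein, had 12.9, 7.61 and 13.5, and Inpp5f 24.5, 9.17 and 9.99. Peg13 had 18.9, 7.34 and 7.57, Zrsr1 20.005, 7.24 and 12.2, Peg10 11.9, 7.64 and 8.75, Mcts2 12.9, 5.84 and 8.82, and Impact 21.3, 13.5 and 13.5. Between Dlk1 and Meg3, 34936 bp from Rtl1, a further place of 2670 bp had folds of 20.6 for H4K91R, 12.7 for H4K91Q and 6.98 for H4WT. No place of all 3 was found at H19, Rasgrf1, Slc38a4 or Zdbf2. H19 had 3 places of the mutant pair and 1 of H4K91R and H4WT. H19 and Rasgrf1 are textbook cases of a control region methylated on the paternal allele, as is the region between Dlk1 and Meg3. The search at each locus covered the gene and 5 kb around it, and whether that stretch includes the control region was not checked. Empty-vector peaks were present at Gnas, Meg3 and Zdbf2, 1 each.

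**Figure D3:**
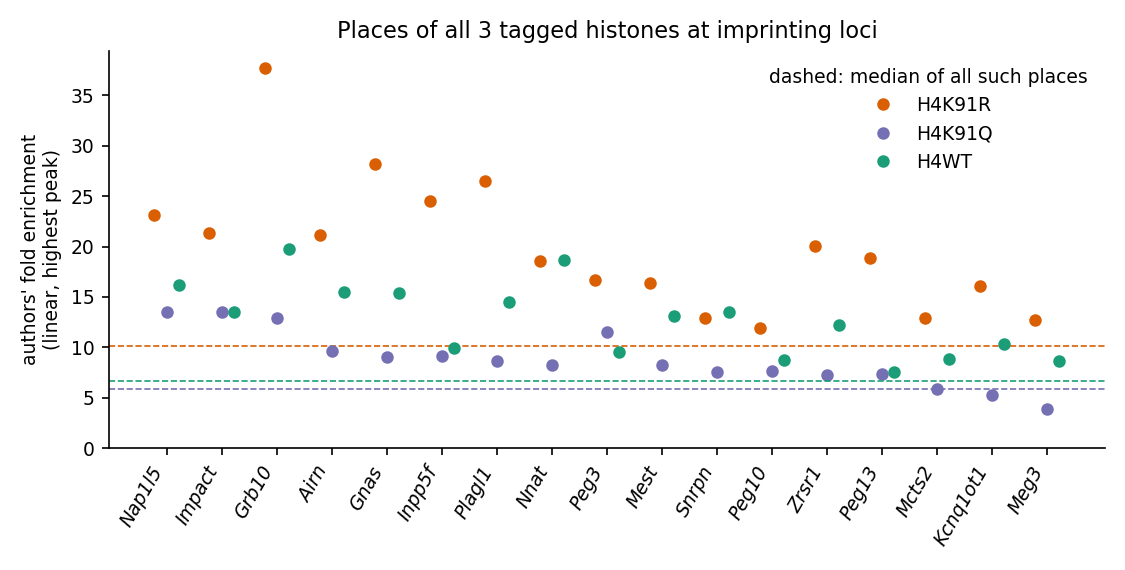
Points give the authors' fold enrichment (y axis, linear scale) of the highest H4K91R, H4K91Q and H4WT peak in the highest-ranked place of all 3 tagged histones at each of 17 imprinting loci, ordered by the lowest percentile over the lists. Dashed lines mark the median over all 2389 places (10.1, 5.89 and 6.71), and the points of Meg3 and Mcts2 for H4K91Q (3.88 and 5.84) and of Kcnq1ot1 (5.28) lie below theirs.

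In the other gene lists the counts were small and are set beside the 0.795% of all protein-coding genes. Of 26 germline and 2-cell genes, 3 had a place of all 3 at an end (11.5%, 2.45 to 30.2): Dazl, an RNA-binding protein gene of germ cells, Mael, a piRNA pathway gene, and Zfp352, a gene of the 2-cell stage. Dazl had folds of 12.5 for H4K91R, 4.95 for H4K91Q and 10.6 for H4WT, and Mael had 15.8, 3.59 and 11.4. The H4K91Q peaks of both stood below the middle of their list, at the 44.2nd and 6.09th percentile. Vomeronasal receptor genes, which serve pheromone sensing, had 4 of 353 (1.13%, 0.310 to 2.88), namely Vmn2r29, Vmn2r2, Vmn1r65 and Vmn1r56, and olfactory receptor genes 1 of 1106 (0.0904%, 0.0023 to 0.503), Olfr1344. Of 397 Zfp zinc finger genes 7 had one (1.76%, 0.712 to 3.599): Zfp787, Zfp575, Zfp872, Zfp352, Zfp629, Zfp395 and Zfp33b. The intervals of the vomeronasal and Zfp lists include the share of all genes, so these counts show nothing particular to those genes.

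Lists of developmental and constitutively expressed genes had 0 or 1 gene each with a place of all 3 at an end, and the interval of each includes the 0.795% of all genes. Places of H4K91R and H4WT only are given beside them, with 34.1% of all genes as the background. Of 36 mesoderm and endoderm regulators 27 had a place of H4K91R and H4WT only at an end and 0 a place of all 3, which allows a share of up to 9.74%. Of 39 Hox genes 32 had a place of H4K91R and H4WT only at an outermost end, and 1, Hoxd10, had a place of all 3 there. That place also covers the start of Hoxd11 shown above. Hoxd11 is not in this count, because only the outermost annotated ends of a gene were used. Of 36 neural progenitor genes 30 had a place of H4K91R and H4WT only and 1 of all 3, Pou3f2, a POU-domain factor of neural cells. Tet2 was 1 of 32 pluripotency genes, Nefm, a neurofilament gene, 1 of 36 neuronal genes, Atf7ip 1 of 29 heterochromatin and KAP1 silencing genes, and Actg1, a cytoplasmic actin gene, 1 of 30 housekeeping genes. Ribosomal protein genes had 0 of 84, replication-dependent histone genes 0 of 88, clustered protocadherin genes 0 of 57, and genes of H3-H4 chaperones and H3.3 0 of 24. Exact intervals for these zeros reach 4.30%, 4.11%, 6.27% and 14.2%. For places of H4K91R and H4WT only, 15 of the 32 pluripotency, 19 of the 36 neuronal and 11 of the 24 chaperone genes also exceeded the background. Below it were heterochromatin genes with 6 of 29, housekeeping genes with 8 of 30 and ribosomal protein genes with 16 of 84. Clustered protocadherin genes with 10 of 57 and histone genes with 2 of 88 were also below it.

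Places of all 3 were spread over 1207 of 2732 windows of 1 Mb, with a median gap of 443 kb, but 513 of them (21.5%) had another within 10 kb. Chromosome 5 had the most, 291 or 1.92 per Mb, against 0.553 to 1.30 per Mb on the other autosomes and 0.281 on chromosome X. A stretch of 16 Mb on chromosome 5, from 130 to 146 Mb and chosen after its values were seen, held 175 of the 2389 (7.33%) with 1.10% of protein-coding genes. It held 1.27% of the places with H4K91R and H4K91Q only, 2.18% of those with H4K91R and H4WT only and 4.65% of those with H4K91Q and H4WT only (6 of 129). It also held 1.01% of those with H4K91Q alone, 2.03% with H4K91R alone, 1.94% with H4WT alone and 1.83% of empty-vector peaks. H4K91Q was present at 27.7% of the places with H4K91R and H4WT in the stretch (24.2 to 31.4), against 8.90% on the remainder of chromosome 5 (7.41 to 10.6) and 9.76% over the genome outside the stretch (9.37 to 10.1). Inside gene bodies the share was 24.9% in the stretch (20.4 to 29.8) against 5.83% beyond it, outside genes 47.7% (40.1 to 55.4) against 28.0%, and at gene ends 5.36% (1.99 to 11.3) against 1.61% (1.33 to 1.93). H4WT was likewise present at 75.4% of all places with H4K91R and H4K91Q in the stretch (69.4 to 80.8), against 33.3% outside it.

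Places with H4K91R and H4WT had a median H4K91R fold of 6.14 in the stretch (quartiles 5.07 to 8.30) against 5.62 beyond it (4.82 to 6.70), and a median H4WT fold of 6.72 in both. The part of the H4K91R height in the H4K91Q share of the stretch was not tested. Empty-vector peaks had a median fold of 5.49 in the stretch and 5.48 beyond it. Several genes in the stretch had many places of all 3 in their bodies, among them Prkar1b, a protein kinase A regulatory subunit gene, with 7 in 133 kb. Within Prkar1b the H4K91R folds ranged from 7.56 to 17.2, those of H4K91Q from 4.14 to 8.48 and those of H4WT from 4.73 to 10.8. Col26a1 and Sdk1, a collagen and a synaptic adhesion gene, had 5 each, and Castor2 and Hip1 had 4 each. Zfp978 on chromosome 4 also had 7, with no place of H4K91R and H4WT only in the gene, and Bcam and Noc2l had 5 each. These genes were chosen by their counts.

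**Figure D4:**
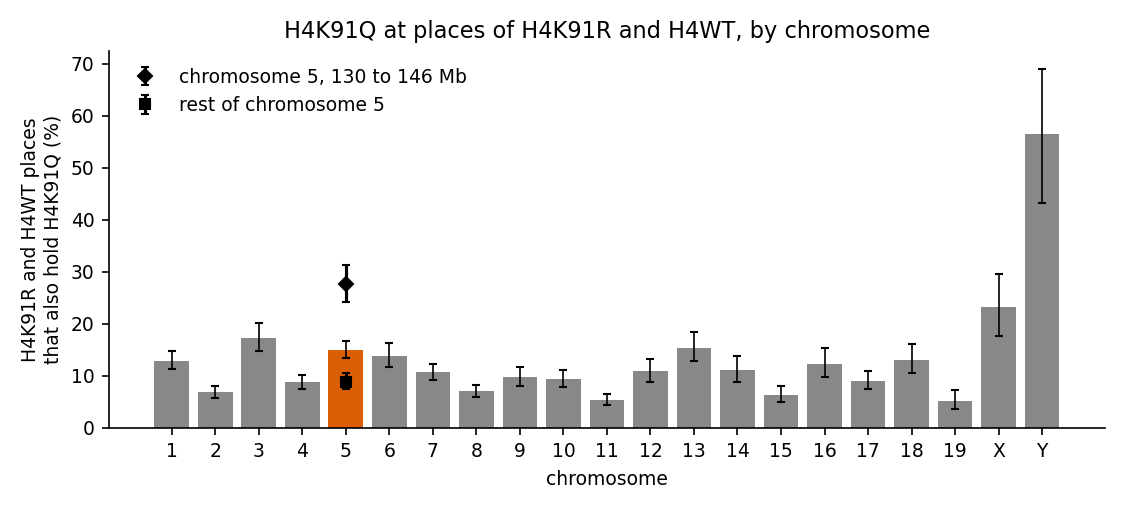
Bars give, for each chromosome (x axis), the percentage of places with H4K91R and H4WT that also held H4K91Q (y axis), with exact 95% intervals, and the 2 black points divide chromosome 5 (orange) into the stretch and the remainder. The stretch had 27.7%, the remainder of chromosome 5 had 8.90%, and the highest bar, chromosome Y, had 56.5% of only 62 places.

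By chromosome, the share of places with H4K91R and H4WT that also held H4K91Q ranged from 5.24% on chromosome 19 and 5.44% on chromosome 11 to 17.3% on chromosome 3 among autosomes. It was 23.2% on chromosome X (17.6 to 29.5) and 56.5% on chromosome Y (43.3 to 69.0). The share of chromosome Y rests mostly on a single window, 90 to 91 Mb. It held 30 of the 35 places of all 3 on that chromosome, the most of any window, and 38 of its 62 places with H4K91R and H4WT. H4K91Q was present there at 78.9% of the 38 places with H4K91R and H4WT (62.7 to 90.4). On chromosome X, the window from 170 to 171 Mb held 9 of the 48 places of that chromosome. How uniquely reads map in either window was not tested.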

How the data were processed

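Peak lists of 4 anti-HA pulldowns from mouse embryonic stem cells were used, 1 library per group, grouped by genotype and title. Peaks were called with MACS2 on mm10, per the submitters' processing notes, and peak names show that each pulldown was set against the input of its own line. Not given in the sources used here were the aligner, the MACS2 version, duplicate handling and the q threshold. The deposited score equalled 10 times the −log10 q, rounded down, for 100% of peaks. The authors' fold, a ratio to local background, was used only to rank and describe peaks within a list. The authors' −log10 p was not used, and the deposited −log10 q served for filters. The summit position was used as deposited. Depth is unknown, because no read numbers come with the lists.

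Tagged peaks overlapping an empty-vector peak by at least 1 bp were left out, and overlapping peaks merged. Places were located by midpoint on RefSeq genes of GRCm38.p6 (49943 on named chromosomes, 21887 protein-coding), with strand from the RefSeq promoter table. Gene ends were the outermost annotated ends of a gene. Gene starts came from the promoter table, so a start can lie inside a gene. Of 310 list symbols 306 matched. Percentiles rank a peak's fold among all deposited peaks of its list, including those later left out for overlapping an empty-vector peak. Intervals are exact (Clopper-Pearson) at 95% and cover counting error only, and no p-value is given. Overlap, location and gene-end steps were checked on simulated regions, with 100% of 5000 right in each.

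Members, lists, loci, motifs and the stretch of chromosome 5 were chosen with earlier results of these data known. Named were the 12 highest-ranked places by the lowest of the 3 percentiles, the 12 highest outside genes, the 5 widest, the 5 lowest, the 20 highest protein-coding genes without predicted ones, and up to 8 genes per list. Others named were chosen after their values were seen. Some genes are not reported here. Base and repeat composition of places outside promoters was not analysed here, since no genome was used. Python 3.11.15, pandas 2.3.3, numpy 2.4.6 and scipy 1.17.1 were used.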

Additional observations from a re-analysis of the deposited data

How the results depend on the processing

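Each group has 1 library, so the spread between replicates is unknown, as is the depth, which bears on how many weak peaks are called. No paired analysis was possible because the result comes from no test and a group holds a single library. When each tagged list was cut to the length of the shortest by −log10 q, 856 places held all 3, with 60.6% outside genes, 8.995% at gene ends, 38.3% in the densest of the 5 groups of windows and 115 genes with a place at an end. H4K91Q was then present at 19.99% of places with H4K91R and H4WT, at 63.4% in the chromosome 5 stretch and at 18.5% outside it. At a −log10 q of 5 or more these shares were 12.9%, 34.9% and 12.2%, and 1690 places held all 3. With all annotated genes in place of protein-coding ones, 55.1% of places lay outside genes and 11.2% at gene ends. Gene-end windows of 500 bp and 2 kb gave 3.43% and 8.16%. Ranking by −log10 q gave median percentiles of 72.4 for H4K91Q and 67.3 for H4WT. With empty-vector peaks retained 2480 places held all 3, and with an overlap of at least 50% of the narrowest peak required, 1964. Imprinting loci with a place numbered 16 or 17 under all 5 alternatives run. The alternatives for the H4K91Q shares and the imprinting loci were added after the data were seen.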

Other observations

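Places of all 3 tagged histones overlapped 9 of 1005 microRNA hairpins in the RefSeq table. Such a place overlapped 0.387% of promoter windows of 300 bases and lay at an end of 0.795% of protein-coding genes. These targets differ in length, so the shares are not matched. Of these, Mir136, Mir3071 and Mir432 lie within 1 place of 532 bp inside Rtl1, a retrotransposon-derived imprinted gene between Dlk1 and Dio3. That place had folds of 11.4 for H4K91R, 6.11 for H4K91Q and 7.98 for H4WT. The others were Mir6546, Mir8109, Mir6935, Mir5125, Mir7677 and Mir7217. Mir5125 lies in the 11236 bp place over Srrm2 and Elob. These overlaps were looked for after the members were known.

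Nefm had a second place of 2733 bp beside the one of 1837 bp at its end. In Pcdha1, a clustered protocadherin gene whose body spans its neighbours, 4 places of all 3 lay beside 13 places of H4K91R and H4WT only, although no clustered protocadherin gene had one at an end.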
